A study of Mus musculus with 14 samples.

Results

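The genes described here write, read and erase methylation of lysine 9 on histone H3 (H3K9): the methyltransferases Ehmt1, Ehmt2, Suv39h2 and Setdb1, the adaptor Trim28, the HP1 proteins Cbx1, Cbx3 and Cbx5, and the demethylases Kdm4a and Kdm4c. They were followed through chromatin accessibility alone, by taking every consensus ATAC-seq peak whose nearest protein-coding gene span within 50 kb was one of these 10 genes, or that lay within 1 kb of one end of such a gene. This gave 24 of the 57289 peaks, 1 to 3 per gene. Bulk ATAC-seq had been run on long-term haematopoietic stem cells (LT-HSCs) of the mouse, sorted from C57BL/6 bone marrow as Lin- Sca1+ cKit+ CD34- Flt3- cells, to compare young, aged and treated aged cells. Young cells came from animals of 10 to 16 weeks (n = 4) and aged cells from animals over 80 weeks (n = 5). The group called aged Ri (n = 5) held aged cells given 100 µM Rhosin, an inhibitor of the small GTPase RhoA, for the whole incubation. Cells of all 3 groups, young ones included, spent 16 h at 37 °C in HBSS that held 10% FBS, under 5% carbon dioxide and 3% oxygen. The submitters describe the libraries as biological replicates, and the sources used here do not say how many animals went into each, so p-values measure the spread between these libraries.

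H3K9 methylation is the histone mark most closely tied to silent heterochromatin. Suv39h2 places the trimethyl mark at constitutive heterochromatin, Ehmt1 and Ehmt2 (GLP and G9a) work as a pair that places the mono- and dimethyl marks, and Setdb1 is brought to repeats and retroviral elements by Trim28 (KAP1), which zinc-finger proteins tether to DNA. The HP1 proteins, HP1 beta (Cbx1), HP1 gamma (Cbx3) and HP1 alpha (Cbx5), bind the methylated lysine through their chromodomain, and Kdm4a and Kdm4c remove the di- and trimethyl marks. Heterochromatin of this kind lines the nuclear periphery. Accessibility at a gene's start is not a measure of its RNA, of its protein or of H3K9 methylation.

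The libraries held 765533 to 3176246 counts in peaks, of which 673 to 2173 fell in the 24 peaks of these genes. All 24 passed the filter on low counts. Peaks at gene ends took 48.7% ± 1.9 (SD, n = 4) of the counts in young libraries, against 42.6% ± 4.4 (SD, n = 5) in the aged group and 42.5% ± 4.5 (SD, n = 5) with Ri. The library aged 5, at 49.6%, lay within the young range. Of 12 LT-HSC marker genes 10 had a peak at a gene end (Slamf1 and Gata2 had none), against 0 of 6 genes of other tissues. The summed gene-end level of 6 megakaryocyte markers was 168 to 333 CPM (counts scaled to library size) in young, 323 to 621 in aged and 318 to 417 in aged Ri libraries. That of 10 LT-HSC markers was 421 to 585, 526 to 679 and 486 to 625 CPM in the same order. It was 39.3 to 56.4, 43.2 to 95.1 and 33.7 to 104 CPM for the 4 of 6 myeloid markers with a gene end, and 111 to 182, 110.1 to 207 and 134 to 186 CPM for 3 of 6 T and NK markers. It was 159 to 198, 184 to 229 and 136 to 219 CPM for 4 of 6 erythroid markers, and 85.5 to 110.4, 108 to 147 and 85.0 to 146 CPM for 3 of 6 endothelial and stromal markers. In each of these 6 lists the young and aged ranges overlapped. The part of these differences in the results below was not tested, and in bulk libraries fewer cells of a type and less signal per cell cannot be told apart.

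Each gene except Kdm4c had at least 1 peak at its 5' end, and none of the 10 had a peak at its 3' end. Of the 24 peaks, all 700 bp wide, 11 lay within 1 kb of the 5' end of the member's span, 11 inside the spans, 1 upstream and 1 downstream. Cbx1 and Suv39h2 had the peak at the 5' end alone. Of the 24, 7 were also within 1 kb of an end of a neighbouring gene and cannot be given to one gene: both peaks of Cbx3 (with Hnrnpa2b1), both of Trim28 (with Gm31649), and one each of Cbx5 (Hnrnpa1), Suv39h2 (Dclre1c) and Setdb1 (Cers2). Kdm4c had no peak at the first base of its span, and its largest peak lay 9355 bp further in, at the second start that RefSeq annotates.

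The largest peak of each gene can be set in order, since all peaks have one width. Those of Cbx5, Cbx3, Suv39h2 and Trim28 are shared with an end of a neighbouring gene, so their height is not that of the member alone. In young libraries the Kdm4a peak (chr4:118179563-118180262, mm10) was the highest at 158 ± 6.80 (SD, n = 4) CPM, scaled over all peaks. The peaks of Cbx5 (chr15:103239645-103240344) at 124 ± 27.6 (SD, n = 4) and Cbx3 (chr6:51469846-51470545) at 111 ± 23.7 (SD, n = 4) CPM followed, and these neighbours overlapped in their libraries. A middle group held Suv39h2 (chr2:3474587-3475286, 55.3 ± 2.90 (SD, n = 4) CPM), Kdm4c (chr4:74251502-74252201, 54.7 ± 8.96 (SD, n = 4) CPM), Ehmt1 (chr2:24919205-24919904, 54.0 ± 12.8 (SD, n = 4) CPM) and Trim28 (chr7:13024108-13024807, 46.8 ± 15.4 (SD, n = 4) CPM), which did not differ beyond their spread. Cbx1 (chr11:96788918-96789617), at 36.7 ± 3.23 (SD, n = 4) CPM, lay below the libraries of Suv39h2, Kdm4c and Ehmt1 but within the range of Trim28. Setdb1 (chr3:95356765-95357464, 18.9 ± 6.82 (SD, n = 4) CPM) and Ehmt2 (chr17:34898046-34898745, 18.2 ± 6.86 (SD, n = 4) CPM) were lowest and overlapped. Over all 14 libraries the Kdm4a peak, with a mean of 169.9 CPM, stood at the 99.8th percentile of all peaks and the Ehmt2 peak at the 65.4th, where the median peak had 9.40 and the median gene-end peak 21.8 CPM.

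The letters are shown for the starts of the genes with a call, of the HP1 genes with the highest peaks and of Kdm4c, in the 250 bases before a RefSeq start (GRCm38.p6, the assembly called mm10). The table of promoters held 14 starts for the 10 genes. Capitals mark matches, on either strand, to any of 7 short motifs. The CCAAT box was searched by those letters. The GC box, bound by Sp1-family factors, was searched as GGGCGG. The E-box of Myc and its relatives was searched as CACGTG. For ETS-family factors the core CCGGAAG was used, and for the factor YY1 the core ATGGCG. The TATA box was taken as TATAAA, and the cyclic-AMP response element as TGACGTCA. Kdm4a (chr4:118180044-118180293, minus strand) carries the highest peak and is the 1 gene end that passed below. Ehmt1 (chr2:24919610-24919859, minus strand) holds the 1 single peak that passed, far inside the gene. Cbx3 (chr6:51470366-51470615, plus strand) and Cbx5 (chr15:103239853-103240102, minus strand) carry the largest HP1 peaks, both shared with a neighbouring gene. Kdm4c is shown at its first start (chr4:74242247-74242496, plus strand), where no peak lay, and at its second (chr4:74251629-74251878, plus strand), inside the peak.
Kdm4a: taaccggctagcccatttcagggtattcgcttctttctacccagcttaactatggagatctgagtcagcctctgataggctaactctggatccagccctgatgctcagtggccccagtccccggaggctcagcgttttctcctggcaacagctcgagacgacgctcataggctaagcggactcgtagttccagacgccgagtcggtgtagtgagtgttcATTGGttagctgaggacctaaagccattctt
Ehmt1: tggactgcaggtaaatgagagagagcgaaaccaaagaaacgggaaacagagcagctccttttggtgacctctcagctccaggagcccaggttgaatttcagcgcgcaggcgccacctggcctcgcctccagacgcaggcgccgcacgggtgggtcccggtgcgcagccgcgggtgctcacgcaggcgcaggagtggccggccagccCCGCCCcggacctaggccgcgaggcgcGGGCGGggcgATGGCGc
Cbx3: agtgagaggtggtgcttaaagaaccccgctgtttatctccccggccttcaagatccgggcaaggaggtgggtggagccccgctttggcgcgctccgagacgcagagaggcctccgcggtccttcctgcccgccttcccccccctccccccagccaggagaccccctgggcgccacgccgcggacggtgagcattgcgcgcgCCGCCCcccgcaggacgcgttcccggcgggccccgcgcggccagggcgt
Cbx5: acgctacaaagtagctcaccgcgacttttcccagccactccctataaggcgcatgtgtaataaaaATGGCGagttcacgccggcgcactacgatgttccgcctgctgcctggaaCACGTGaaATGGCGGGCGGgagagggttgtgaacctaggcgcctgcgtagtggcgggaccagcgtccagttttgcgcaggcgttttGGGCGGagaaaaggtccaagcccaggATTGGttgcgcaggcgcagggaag
Kdm4c, first start: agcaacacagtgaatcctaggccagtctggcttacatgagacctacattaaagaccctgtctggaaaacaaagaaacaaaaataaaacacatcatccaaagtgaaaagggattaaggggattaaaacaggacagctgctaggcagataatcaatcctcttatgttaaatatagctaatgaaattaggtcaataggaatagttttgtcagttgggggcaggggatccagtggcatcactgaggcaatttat
Kdm4c, second start: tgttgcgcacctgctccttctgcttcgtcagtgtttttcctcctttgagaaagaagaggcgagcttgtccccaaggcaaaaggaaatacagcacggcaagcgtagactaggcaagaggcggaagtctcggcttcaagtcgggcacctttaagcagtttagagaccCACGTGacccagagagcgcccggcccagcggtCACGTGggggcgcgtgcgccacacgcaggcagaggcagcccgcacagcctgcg
The window of Kdm4a held 12 CpG dinucleotides and 1 CCAAT match in reverse, and no GC box. That of Ehmt1 held 26 CpG, 2 GC boxes and 1 YY1 core, Cbx3 29 CpG and 1 GC box, and Cbx5 22 CpG, 2 GC boxes, 2 YY1 cores, 1 E-box and 1 CCAAT match, with 1 base shared between matches. The first start of Kdm4c had 0 CpG and no match, and the second had 19 CpG and 2 E-boxes. Over the 32851 promoters of the table the median was 6 CpG. A GC box was matched in 10 of the 14 windows of these genes and in 32.7% of all promoters, CCAAT in 3 and 33.8%, the E-box in 4 and 6.02%, the ETS core in 1 and 6.91%, the YY1 core in 2 and 5.73%, TATAAA in 0 and 12.4%, and the cyclic-AMP element in 1 and 1.55%. A match describes these letters alone.

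Across the 3 comparisons, few of these loci passed the test, and none did between aged Ri and aged cells. Of the 24 peaks, 1 differed between aged and young cells, a peak inside Ehmt1, and it was higher in aged cells (edgeR quasi-likelihood test, Benjamini-Hochberg adjusted p under 0.05). The same share over all 56235 peaks tested was 5.72%. Between aged Ri and young cells the same Ehmt1 peak passed and no other, against 11.5% of all peaks, and between aged Ri and aged cells 0 of 24 passed, against 0.446%. At an unadjusted p under 0.05 there were 4, 5 and 0 peaks, against 22.3%, 27.7% and 10.2% of all peaks in those comparisons. The 3 comparisons share their aged, young and aged Ri libraries and are not independent. DESeq2 also passed 0 of the 24 between aged Ri and aged cells.

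**Figure D1:**
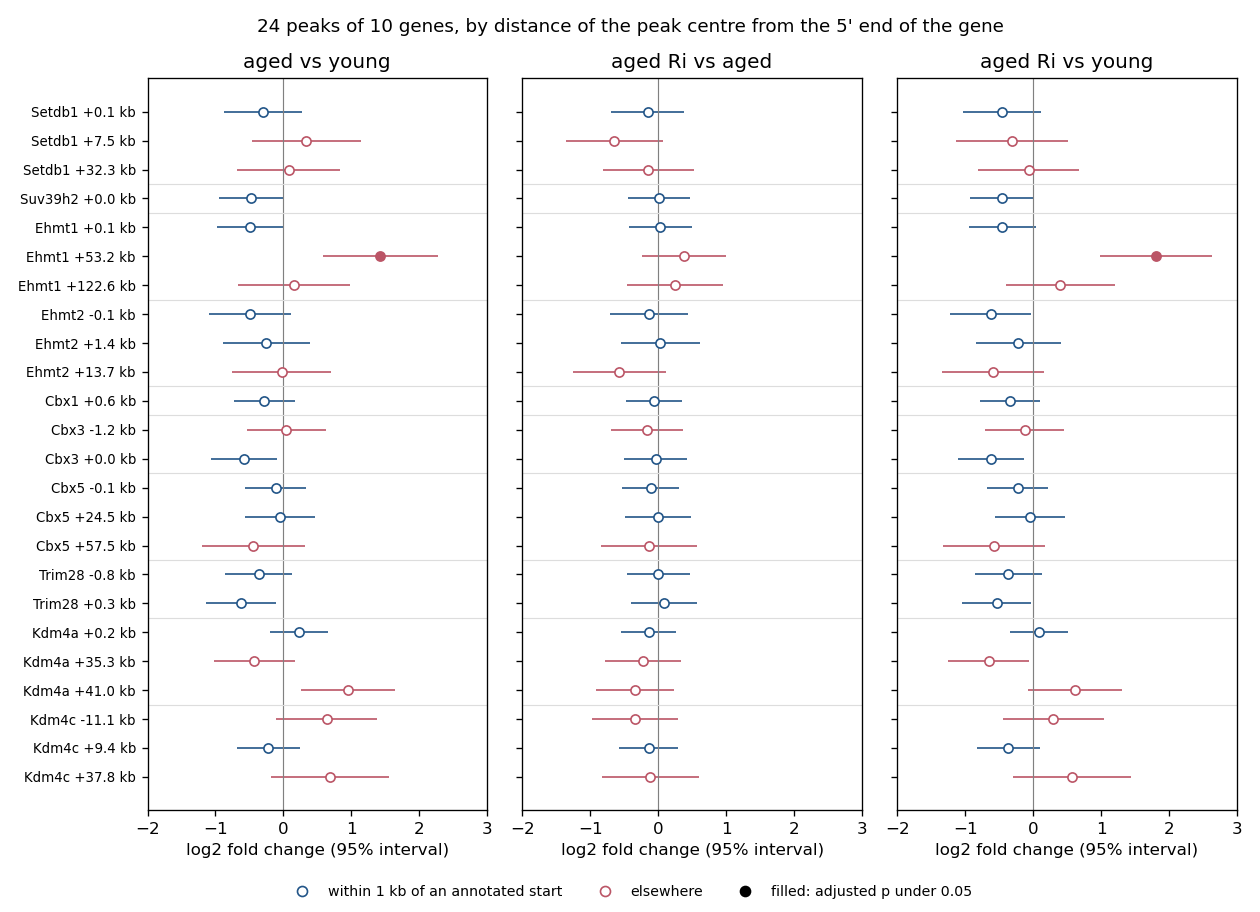
Log2 fold change (x axis) with its 95% interval for each of the 24 peaks in the 3 comparisons, grouped by gene and labelled with the distance of the peak centre from the 5' end of the gene span. Filled symbols, seen for the Ehmt1 peak 53233 bp from the start in both comparisons with young cells, passed at an adjusted p under 0.05, and most intervals of the other peaks hold 0.

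At gene ends all peaks within 1 kb of an end were summed, and the sums were scaled over gene-end counts alone. Only Cbx3 and Trim28 had more than 1 peak there, so the other 7 gene ends, that of Kdm4a included, hold the counts of the start peak alone and differ from it in scaling and in the features tested with it. By that measure 1 of the 9 genes with a gene end, Kdm4a, passed between aged and young cells, against 2.10% of the 13239 gene ends tested. It was 0 of 9 between aged Ri and aged cells (0.0755% of all) and 0 of 9 between aged Ri and young cells (5.20% of all), also with DESeq2. Unadjusted p-values under 0.05 were found for 1, 0 and 2 gene ends, against 17.6%, 6.72% and 21.8% of all. With all peaks of a gene summed, 0 of 10 genes passed in any comparison by edgeR or DESeq2, against 5.60% (aged and young), 0.126% (aged Ri and aged) and 11.8% (aged Ri and young) of 16716 genes, and 2, 0 and 1 had an unadjusted p under 0.05, against 23.0%, 8.58% and 28.2%.

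**Figure D2:**
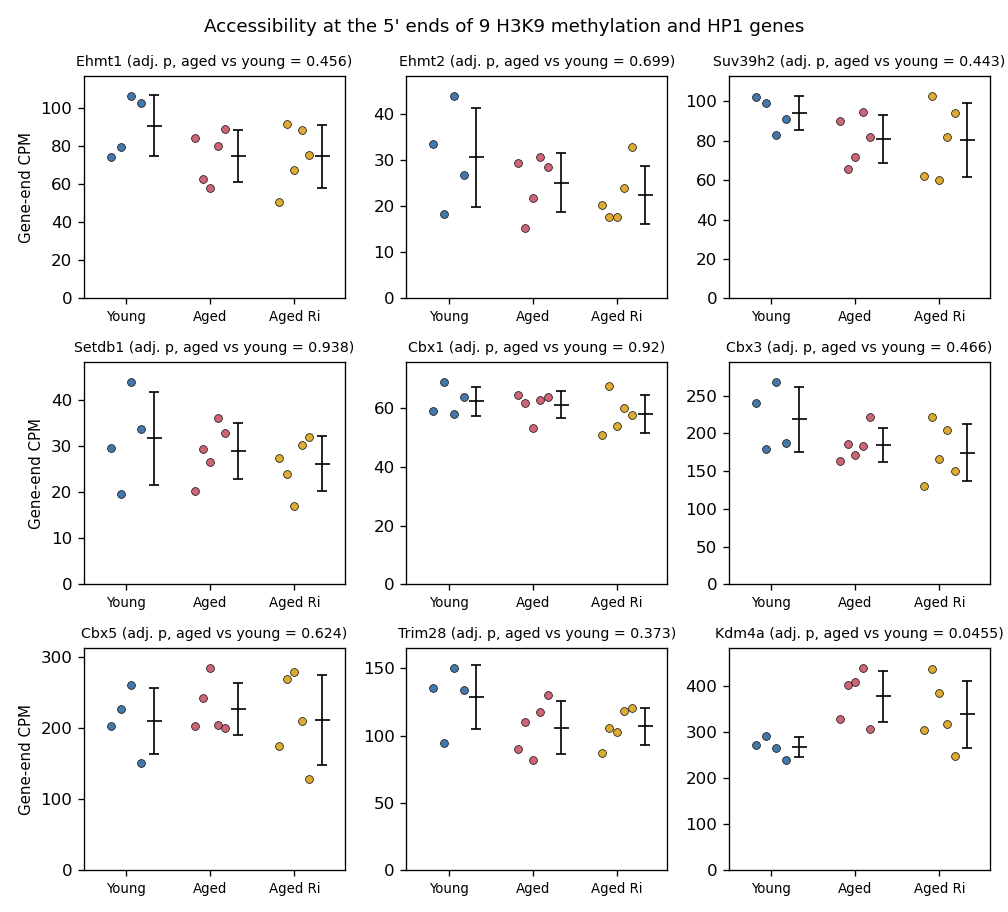
CPM at the 5' end of 9 genes (y axis, scaled over gene ends), with 1 point per library, and the mean with its SD beside each group. The 5 aged libraries of Kdm4a lie between 308 to 439 CPM, above all 4 young ones at 239.7 to 292, and the groups overlap in the other 8 genes.

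Among the writers, Ehmt1 had 1 peak that passed, inside its span, while its start peak did not pass. Whether its peaks differ from each other was not tested. The peak 53233 bp from the start (chr2:24866060-24866759, inside the gene span) had 2.66, 1.37, 8.52 and 3.39 CPM in young libraries 1 to 4. In aged libraries 1 to 5 it had 6.42, 12.3, 14.7, 6.84 and 6.68 CPM. In aged Ri libraries 1 to 5 it had 15.1, 15.3, 18.7, 9.35 and 6.06 CPM. Of the young libraries 3 lay below every aged and aged Ri library, and young 3, the shallowest library, lay among them. The counts behind these values were low, 2 to 7 per young, 8 to 39 per aged and 15 to 58 per aged Ri library.

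The Ehmt1 peak was 2.70-fold higher in aged than in young cells (log2 1.43 ± 0.42 SE, 95% interval 0.58 to 2.28, edgeR adjusted p = 0.0358). In aged Ri cells it was 3.50-fold higher than in young cells (log2 1.81 ± 0.41 SE, edgeR adjusted p = 0.00333). Aged Ri and aged cells differed by log2 0.38 ± 0.31 SE, with an interval of −0.24 to 1.00 that holds 0 (edgeR adjusted p = 0.770). Within sequencing batches 1, 2 and 3, each with few of these same libraries, the difference between aged and young cells was 1.43, 1.21 and 0.80 on the log2 scale. That between aged Ri and young cells was 2.14, 1.58 and 0.68. The call between aged and young cells was lost when aged 2, aged 3, aged 5, young 1 or young 2 was left out (edgeR adjusted p = 0.0901, 0.160, 0.0524, 0.217 and 0.157), and it was kept without the other 4. The call between aged Ri and young cells was kept without each of the 9 libraries, at adjusted p from 0.00136 to 0.0328. The first call was also lost with loess offsets (adjusted p = 0.0616) and without the batch term (adjusted p = 0.0567). With the library's gene-end share as a covariate both calls were lost (log2 1.07 with adjusted p = 0.598, and log2 1.43 with adjusted p = 0.226). That covariate took the calls over all peaks from 5.72% to 0.258% and from 11.5% to 0.994% in the same comparisons. The share differed between young and aged libraries, so share and age are partly confounded in this fit.

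**Figure D3:**
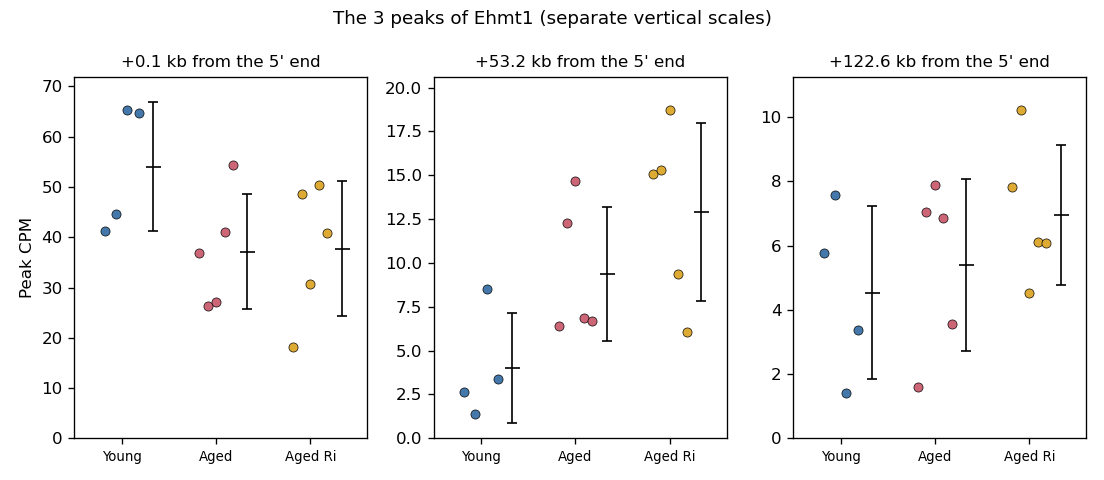
CPM of the 3 Ehmt1 peaks (y axis, scaled over all peaks) in each library, with the mean and SD beside each group. The peak 53233 bp from the start is low in 3 of 4 young libraries, while the start peak has its 2 highest values in young 3 and young 4.

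At its start Ehmt1 did not pass in any comparison. The start peak had 41.3, 44.7, 65.3 and 64.8 CPM in young, 36.9, 26.4, 27.1, 41.1 and 54.3 in aged and 18.2, 48.5, 30.7, 50.3 and 40.8 in aged Ri libraries, which overlapped. The log2 difference between aged and young cells was −0.48 ± 0.25 SE (edgeR adjusted p = 0.237), and at the gene end it was −0.24 ± 0.17 SE (adjusted p = 0.456). The third peak, 122580 bp from the start (chr2:24796713-24797412), differed by 0.16 ± 0.41 SE (adjusted p = 0.857). As a share of all Ehmt1 counts the inside peak that passed held 5.99% ± 3.75 (SD, n = 4) in young libraries, against 18.7% ± 8.85 (SD, n = 5) in the aged group and 23.6% ± 11.6 (SD, n = 5) with Ri. The start peak held 85.9% ± 3.52 (SD, n = 4), 70.7% ± 13.8 (SD, n = 5) and 64.1% ± 13.9 (SD, n = 5). These shares rest on the counts already tested and are a description. The locus total did not pass between aged and young cells (log2 −0.09 ± 0.15 SE, adjusted p = 0.762).

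Ehmt2, the partner of Ehmt1, had 3 peaks, and none passed. Its gene end had 33.5, 18.4, 43.9 and 26.8 CPM in young, 29.4, 15.4, 21.8, 30.7 and 28.5 in aged and 20.3, 17.6, 17.7, 23.99 and 32.8 in aged Ri libraries. The groups overlapped throughout. The gene end differed by log2 −0.23 ± 0.28 SE between aged and young cells (edgeR adjusted p = 0.699), by −0.13 ± 0.26 SE between aged Ri and aged cells (adjusted p = 0.988) and by −0.36 ± 0.27 SE between aged Ri and young cells (adjusted p = 0.448). Its intervals were the widest of the gene ends, −0.79 to 0.33 between aged and young cells, at 359 counts in the start peak over all libraries.

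Suv39h2 had 1 peak, which also lay within 1 kb of an end of the DNA repair gene Dclre1c. The peak had 56.8, 55.7, 51.1 and 57.6 CPM in young, 39.3, 27.5, 33.5, 48.6 and 49.9 in aged and 22.4, 54.5, 27.4, 46.7 and 50.9 in aged Ri libraries. All 5 aged libraries lay below all 4 young ones. It was the 1 peak of the 24 whose aged and young libraries did not overlap in either direction, against 6.07% of all peaks, while aged Ri 2 lay within the young range. The difference between aged and young cells was log2 −0.47 ± 0.24 SE and did not pass (95% interval −0.95 to 0.00, edgeR adjusted p = 0.227). At the gene end, scaled over gene ends, the groups overlapped and the difference was −0.24 ± 0.16 SE (adjusted p = 0.443). Within the 3 batches the peak differed by −0.77, −0.39 and −0.20.

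Setdb1, the methyltransferase that Trim28 brings to retroviral elements, had peaks at its start, 7486 bp in and 32274 bp in, the last also near Cers2. Its gene end had 29.5, 19.6, 43.9 and 33.7 CPM in young, 20.2, 29.4, 26.6, 36.0 and 32.9 in aged and 27.5, 24.1, 17.0, 30.3 and 32.1 in aged Ri libraries, with full overlap. The gene end differed by log2 −0.05 ± 0.26 SE between aged and young cells (edgeR adjusted p = 0.938), and its start peak by −0.30 ± 0.28 SE (adjusted p = 0.558). Between aged Ri and aged cells the gene end differed by −0.16 ± 0.24 SE (interval −0.64 to 0.33).

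Trim28, the adaptor, had 2 peaks at its start, both shared with Gm31649. The peak over the start had 37.3, 30.2, 62.5 and 57.1 CPM in young, 24.9, 18.2, 17.3, 30.1 and 57.4 in aged and 17.2, 27.2, 24.5, 41.4 and 40.4 in aged Ri libraries. Of the aged libraries 4 lay below the lowest young one, young 2, and aged 5 lay near the top of the young range. The difference between aged and young cells was log2 −0.63 ± 0.25 SE and did not pass (edgeR adjusted p = 0.137). Without aged 5, where 8.29% of all peaks passed against 5.72% with all libraries, it passed as lower (log2 −0.86, adjusted p = 0.0480). Within batches it was −0.78, −0.90 and 0.01, so batch 3, which holds young 4 and aged 5, showed no difference. At the gene end the difference was −0.25 ± 0.15 SE (adjusted p = 0.373), and aged Ri differed from aged cells by 0.03 ± 0.14 SE (interval −0.26 to 0.31).

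The 3 HP1 genes did not pass at gene ends in any comparison. Cbx1 (HP1 beta) had 59.0, 68.7, 57.7 and 63.6 CPM in young, 64.2, 61.5, 53.2, 62.7 and 63.6 in aged and 50.7, 67.3, 53.9, 60.0 and 57.4 in aged Ri libraries, the narrowest relative spread of the 9 gene ends in aged and aged Ri cells. Its log2 differences were −0.04 ± 0.16 SE between aged and young (interval −0.37 to 0.29, edgeR adjusted p = 0.920) and −0.07 ± 0.15 SE between aged Ri and aged cells (adjusted p = 0.988).

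Cbx3 (HP1 gamma) starts beside Hnrnpa2b1, which encodes an RNA-binding protein, and both of its peaks also lay within 1 kb of an end of that gene. The peak over the Cbx3 start had 110.1, 91.4, 145 and 98.2 CPM in young, 56.1, 58.0, 62.8, 74.6 and 113 in aged and 38.5, 89.4, 60.0, 98.9 and 66.3 in aged Ri libraries. Aged 1 to 4 lay below all young libraries, and aged 5 lay inside the young range. The peak differed by log2 −0.58 ± 0.24 SE between aged and young cells, which did not pass (edgeR adjusted p = 0.145). It passed as lower without aged 5 (log2 −0.82, adjusted p = 0.0342), where 8.29% of all peaks passed against 5.72% with all libraries. Within batches the difference was −0.94, −0.74 and 0.20. Between aged Ri and young cells it was −0.62 ± 0.24 SE (adjusted p = 0.0853), and it passed without aged Ri 2, aged Ri 4 or young 4 (adjusted p = 0.0226, 0.0348 and 0.0408). In those fits 11.9%, 14.3% and 16.3% of all peaks passed, against 11.5% with all libraries. The gene end, with both peaks, differed by −0.21 ± 0.15 SE between aged and young cells (adjusted p = 0.466). The upstream peak alone, 1221 bp before the start, was at 0.05 ± 0.28 SE (adjusted p = 0.947).

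Cbx5 (HP1 alpha), which starts beside Hnrnpa1, had 203, 227, 261 and 151 CPM at its gene end in young, 204, 243, 285, 204 and 199.7 in aged and 175, 269, 279, 209.6 and 128 in aged Ri libraries. The highest and the lowest value of the 14 both occurred outside the young group, in aged 3 and aged Ri 5. The gene end differed by log2 0.15 ± 0.14 SE between aged and young cells (edgeR adjusted p = 0.624), a value that turned to −0.11 when scaled over all peaks. Aged Ri and aged cells differed by −0.14 ± 0.13 SE and aged Ri and young cells by 0.00 ± 0.14 SE (adjusted p = 0.941 and 0.989). The peak at its second annotated start, 24538 bp in (chr15:103215016-103215715), had 18.3 ± 6.16 (SD, n = 4) CPM in young libraries, against 17.7 ± 6.53 (SD, n = 5) in the aged group and 17.9 ± 4.31 (SD, n = 5) with Ri, with a log2 difference of −0.05 between aged and young cells (adjusted p = 0.938). The peak whose near edge lay 8769 bp past the span differed by −0.44 ± 0.37 SE (adjusted p = 0.507).

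Of the erasers, Kdm4a was higher at its gene end in aged than in young cells. Its gene end had 273, 292, 266 and 239.7 CPM in young libraries 1 to 4. It had 329, 403, 409, 439 and 308 CPM in aged libraries 1 to 5 and 304, 436, 386, 317 and 249 CPM in aged Ri libraries 1 to 5. Every aged library lay above every young one. It was the 1 gene end of the 9 whose aged and young libraries did not overlap in either direction, against 3.89% of all gene ends, while aged Ri 5 lay within the young range. The means were 268 ± 21.7 (SD, n = 4), 377 ± 56.3 (SD, n = 5) and 338 ± 73.2 (SD, n = 5) CPM.

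The Kdm4a gene end was 1.39-fold higher in aged than in young cells (log2 0.48 ± 0.13 SE, 95% interval 0.21 to 0.74, edgeR adjusted p = 0.0455). The mean of aged Ri libraries lay between those of the other groups, at log2 −0.17 ± 0.12 SE from aged cells (interval −0.42 to 0.07, adjusted p = 0.891) and 0.30 ± 0.13 SE from young cells (interval 0.04 to 0.57, adjusted p = 0.166), and neither passed. Within the 3 batches, each with few of these same libraries, aged and young cells differed by 0.41, 0.60 and 0.36. The call was close to the threshold: leaving out any library but young 4 ended it, at adjusted p from 0.0532 (without aged 5) to 0.230 (without young 1), with the log2 difference between 0.43 and 0.54. Of 11 other settings 4 kept it, among them a fit with replicate number as a block. Young numbers do not pair with aged ones, and that fit passed 7.59% of all gene ends, against 2.10% in the main fit. Scaled over all peaks, where the median of all gene ends between aged and young cells moved from −0.01 to −0.25, the Kdm4a difference was 0.23 (adjusted p = 0.476). As a single peak, the start of Kdm4a had 152, 164, 163 and 151 CPM in young, 144, 169, 191, 225 and 187 in aged and 109, 232, 176, 181 and 135 in aged Ri libraries, where the groups overlapped.

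**Figure D4:**
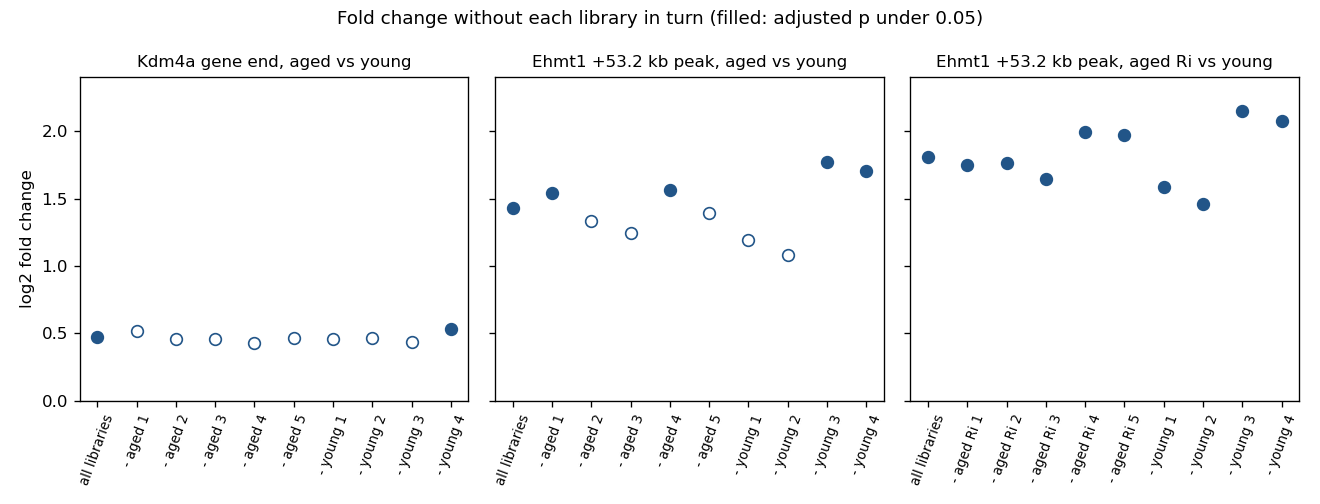
Log2 fold change (y axis) with all libraries and without each library of the 2 groups in turn, for the Kdm4a gene end and for the Ehmt1 peak 53233 bp from the start. Filled symbols passed at an adjusted p under 0.05: the Kdm4a value moves between 0.43 and 0.54 and passes without young 4 alone, and the Ehmt1 peak passes without each library against aged Ri cells.

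Further inside Kdm4a, the peak 41033 bp from the start (chr4:118138707-118139406, 2100 bp before the 3' end) had 3.55, 6.19, 8.52 and 6.77 CPM in young, 14.4, 6.44, 13.5, 15.7 and 9.35 in aged and 12.0, 9.36, 11.6, 9.35 and 4.85 in aged Ri libraries. Of the aged libraries 4 lay above all young ones, and aged 2 lay among them. The difference between aged and young cells was log2 0.95 ± 0.34 SE (edgeR adjusted p = 0.0868). It passed without young 4 (1.26, adjusted p = 0.0269), where 11.5% of all peaks passed against 5.72% with all libraries. The peak 35338 bp from the start had the opposite sign, −0.43 ± 0.29 SE (adjusted p = 0.401). The total over the Kdm4a locus differed by 0.34 ± 0.12 SE (adjusted p = 0.0977). Among 7265 gene ends whose mean count was 50 or more and that share no peak with it, the batch-centred log2 CPM of the Kdm4a gene end was most like that of Rab11b (r = 0.950), Mon1b (r = 0.942) and Rap2b (r = 0.932) over the 14 libraries, which share depth, group and scaling.

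Kdm4c, which removes the same marks, had no gene end, and its peak at the second annotated start had 41.3, 57.7, 59.6 and 60.0 CPM in young, 31.3, 35.1, 34.6, 49.96 and 76.1 in aged and 23.95, 51.1, 37.1, 47.5 and 42.9 in aged Ri libraries. Aged 5 was the highest of all 14 libraries, above every young one, and the other aged libraries lay below young 2, 3 and 4. The peak differed by log2 −0.22 ± 0.23 SE between aged and young cells (edgeR adjusted p = 0.594) and by −0.14 ± 0.22 SE between aged Ri and aged cells (adjusted p = 0.920). The other peaks of Kdm4c were centred 11104 bp before and 37797 bp past the 5' end of the span. They were at 0.64 ± 0.37 and 0.69 ± 0.43 SE between aged and young cells (adjusted p = 0.299 and 0.348).

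By position, peaks near gene ends had mostly negative differences between aged and young cells, as did gene-end peaks over the whole table. Of the 12 peaks within 1 kb of an end of any protein-coding gene, 9 had a negative log2 difference, with a median of −0.33, beside 9937 of 13728 gene-end peaks with a median of −0.22. The 3 positive values belonged to the Kdm4a start, the peak upstream of Cbx3 and the Setdb1 peak near Cers2. Of the 10 inside gene spans 5 were positive and 5 negative, with a median of 0.07, beside 12906 positive of 22612 with a median of 0.10. The 2 between genes were the Kdm4c peak upstream, which was positive, and the Cbx5 peak downstream, which was negative. Of the 11 peaks at the 5' ends of these genes 9 were negative. With RLE scaling, loess offsets or DESeq2 the count of 9 did not move. With the gene-end share of the library as a covariate all 11 at 5' ends turned positive (median 0.17). In that fit share and age are partly confounded, and the median over all peaks moved from −0.01 to 0.04. At gene ends, scaled over gene ends, 7 of 9 were negative with a median of −0.21, beside −0.01 over all gene ends; the 2 others were Kdm4a and Cbx5, and with the share as a covariate all 9 were positive.

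Among 44 other genes of H3K9 methylation and heterochromatin, 39 had a gene end that was tested, and 0 passed between aged and young cells, against 2.10% of all gene ends (6 at an unadjusted p under 0.05, against 17.6%). Of these, 15 were positive and 24 negative, with a median of −0.08. Between aged Ri and aged cells 0 passed, against 0.0755% of all (2 unadjusted, against 6.72%), with a median of −0.06. Between aged Ri and young cells 1 passed, against 5.20% of all, and it was lower: Kdm7a, a demethylase of H3K9 and H3K27. Its gene end had 54.0 to 116 CPM in young, 33.9 to 90.7 in aged and 30.4 to 79.0 in aged Ri libraries, which overlapped. It fell by 0.74 on the log2 scale between young and aged Ri cells (SE 0.18, edgeR adjusted p = 0.00861), and it was at −0.52 ± 0.18 SE between aged and young cells (adjusted p = 0.108). The call was lost without young 1 (adjusted p = 0.0584), without the batch term (0.202), with each library's gene-end share as a covariate (0.462) and with ends widened to 2 kb, where the difference was −0.01. Morc2a, an ATPase that works with the HUSH silencing complex, had the next smallest p between aged and young cells, at −0.37 ± 0.14 SE (adjusted p = 0.143). By role, the medians between aged and young cells were 0.15 over 10 writers and partners, −0.15 over 9 erasers, −0.24 over 9 HUSH and silencing genes and −0.08 over 11 HP1 partners and readers.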

How the data were processed

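Raw counts per consensus peak for 14 bulk ATAC-seq libraries were used as the authors deposited them, in 57289 peaks on mm10. The submitters' processing notes name SAMtools 1.14, R 4.2.0 and featureCounts. How reads were aligned, how peaks were called, and whether duplicates were removed or ends shifted for Tn5 are not given in the sources used here. Peaks were assigned to RefSeq genes of GRCm38.p6 (21887 protein-coding genes, spans without exons).

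Peaks, gene ends (peaks within 1 kb of the end with more counts) and gene totals were each tested over all 14 libraries in edgeR 4.0.16 under R 4.3.3: filterByExpr, TMM scaling, a robust quasi-likelihood fit with group and sequencing batch, Benjamini-Hochberg adjustment over all features and a threshold of 0.05. Aged cells were compared with young ones, and aged Ri cells with both. CPM used the TMM scaling of its level, so a shift of counts towards or away from gene ends is scaled away at gene ends but not in single peaks. Within-batch values are differences of mean log2 CPM with a prior count of 2. Batch 1 held young 1 and libraries 1 and 2 of aged and aged Ri cells. Batch 2 held young 2 and 3 and libraries 3 and 4 of the other groups, and batch 3 held young 4, aged 5 and aged Ri 5. The within-batch values come from the same libraries as the tests and are not independent replications of them. The scripts were tested on simulated data. Alternatives used DESeq2 1.42.0, limma 3.58.1 (loess) and other scalings, filters and libraries. Tables and plots were made with Python 3.11.15, pandas 2.3.3 and matplotlib 3.10.9.

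Replicate numbers were checked for pairing on 25903 peaks. Deviations from the group mean of same-numbered aged and aged Ri libraries correlated at 0.137 to 0.645 in all 5 pairs. In 4 of these the same number was the best match. Aged and aged Ri libraries of one number also share a sequencing batch, which was not removed, so the correlation cannot tell pairing from batch. Those numbers were taken as pairs, as the labels' treatment text also reads, in an alternative fit alone, the replicate block. The main fit had no pair term, so the aged Ri and aged differences, intervals and p-values given above are unpaired. Over all peaks 4.42% passed between these groups with the block, against 0.446% in the main fit. The numbers of young libraries, whose batches follow another order, did not pair with either group (−0.278 to 0.0732).

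The genes, the pathway and marker lists and the rules for naming were chosen with earlier results of these data known. Named were the 10 genes; their largest, called or, where none was called, smallest-p peaks; list genes that passed or had the 2 smallest p-values; and the 3 gene ends most like a called one. Other peaks of the 10 genes are given so that each peak is accounted for. Of 8 marker lists, 1 is not reported here.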

Additional observations from a re-analysis of the deposited data

Results flagged for a closer look

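Single libraries stood apart from the rest of their group in 8 of 129 sets of 4 or 5 libraries checked, by Dixon's test at the 95% level, which flags about 1 in 20 sets by chance. Among peaks, aged Ri 5 had 9.70 CPM at the Cbx5 peak past the span, where the other aged Ri libraries had 3.24 to 5.11. Young 3, the shallowest library, had 19.9 CPM at the second Ehmt2 peak (others 7.26 to 8.93), from 14 counts. Aged Ri 2 had 1.70 CPM at the third Ehmt2 peak (others 7.29 to 9.30), from 2 counts, and 7.66 CPM at the second Setdb1 peak (others 3.23 to 4.17), from 9 counts. Young 1 had 41.3 CPM at the Kdm4c peak of the second start, where the other young libraries had 57.7 to 60.0. At gene ends, aged 3 had 53.2 CPM at Cbx1 (others 61.5 to 64.2). In gene totals, aged Ri 3 had 14.2 CPM at Setdb1 (others 22.4 to 25.6) and young 1 had 47.4 CPM at Kdm4c (others 58.7 to 59.7). None of these 8 belonged to the Kdm4a gene end or the Ehmt1 peak that passed. What sets these libraries apart was not tested.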

How the results depend on the processing

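At these depths single peaks carry few counts, and both loci that passed are sensitive to the settings. No called direction reversed. Between aged and young cells the count of gene ends of these genes that passed was 1 (Kdm4a). It was 0 with a 2 kb window, RLE scaling, annotated start sites, the gene-end share as a covariate, no batch term, no count filter or scaling over all peaks, and 0 to 1 without each library in turn. The cause was not tested. Over all gene ends 2.10% passed in the main fit, 0.0906% to 2.31% in those settings and 0.227% to 5.05% without each library. For peaks the count of 1 became 0 with the share as a covariate or without the batch term and ran from 0 to 2 without each library. With loess offsets it stayed at 1, but the peak was the Kdm4a start and not Ehmt1. Over all peaks 5.72% passed in the main fit, 0.258% with the share, 3.22% without the batch term and 6.19% with loess offsets. Without each library 1.41% to 11.5% of all peaks passed. Between aged Ri and young cells the peak count of 1 became 0 with the share as a covariate and 3 with loess offsets (Ehmt1, Kdm4a start, Cbx3 start), and ran from 1 to 2 without each library. Over all peaks 11.5% passed there in the main fit, 0.994% with the share, 12.4% with loess offsets and 5.31% to 16.3% without each library. Gene totals passed in 0 genes, in 1 (Kdm4a) when only the aged and young groups were fitted, and in 0 to 1 without each library between aged Ri and young cells (Cbx3 without aged Ri 2, Ehmt2 without young 4). Over all genes 6.55% passed with the 2 groups alone, 15.4% without aged Ri 2 and 16.0% without young 4. On the list of other genes, the count of 1 between aged Ri and young cells was 0 with a 2 kb window, the share as a covariate or no batch term, 2 at annotated start sites, 3 scaled over all peaks and 0 to 4 without each library (0 without young 1, 4 without aged Ri 4). Over all gene ends 5.20% passed in the main fit, and 5.70%, 0.279%, 2.54%, 5.03% and 5.87% in those settings in that order. It was 1.61% without young 1 and 9.07% without aged Ri 4. Between aged and young cells the list's count of 0 became 1 (Kmt5c) with the 2 groups alone, where 3.01% of all gene ends passed.

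With the replicate block, no gene end, peak or total passed between aged Ri and aged cells (0 of 9, 0 of 24 and 0 of 10), so the pairing changed no call there. Young numbers do not pair, and in those comparisons the block passed 4 peaks between aged and young cells (Ehmt1, Kdm4a 41033 bp, Cbx3 and Trim28 starts), 4 between aged Ri and young cells, 1 gene end in each (Kdm4a), 2 totals between aged and young cells (Kdm4a and Trim28) and 1 between aged Ri and young cells (Trim28). On the list of other genes the block passed 4 and 6. Over all features the block passed 10.0% of peaks, 7.59% of gene ends and 13.2% of totals between aged and young cells. Between aged Ri and young cells it passed 15.6%, 11.8% and 19.0%, and between aged Ri and aged cells 4.42%, 1.15% and 1.65%. Of all single-gene and single-peak values, 1084 under the other settings and 1113 without a library kept their sign and their side of the threshold. Another 88 and 115 changed sign with no call on either side, 17 and 8 gained a call and 14 and 14 lost one.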
